A study of Mus musculus with 8 samples.

Results

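The genes of cholesterol synthesis, uptake and efflux were followed in *iMLL-AF9* mouse leukemic cells treated with IOX5 or with its solvent DMSO. The group holds 31 of the 54838 genes counted in the 8 samples and was defined by a list of gene symbols, with no threshold on the measured values. It comprises 19 enzymes that build cholesterol, 4 genes that control the transcription factor SREBP2, 3 genes of sterol transport and storage, and 5 genes of cholesterol efflux and its receptors. Symbols and positions are those of GENCODE M21 on the mouse genome build GRCm38, and all 31 were found.

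Poly(A) RNA was sequenced from *iMLL-AF9* cells, which derive from mouse hematopoietic stem and progenitor cells on a C57BL/6 background and carry a doxycycline-inducible *MLL-AF9* fusion oncogene. IOX5 inhibits the prolyl hydroxylases (PHDs) that mark HIF-α for degradation. Each group had 4 samples, numbered 1 to 4, all labelled as wild type and as leukemic stem cells from bone marrow, although the description of the series calls the cells preleukemic. The dose, the duration of treatment, the age of the donors and whether the 4 samples of a group came from separate cultures or animals are not stated for these samples, so the p-values measure the spread between these samples, which may be technical. Between 12343770 and 14116054 reads per DMSO sample and between 11351507 and 12708888 per IOX5 sample were counted on genes. All 9 markers of leukemic progenitors examined, *Kit*, *Cd34* and *Hoxa9* among them, had reads in every sample. Their levels were not all even between samples. In DMSO samples 1 to 4, *Cd34* stood at 25.9, 23.1, 133 and 153 CPM. *Hoxa10*, also among the 9, differed the other way, at 59.9, 75.0, 30.9 and 33.5 CPM. Of 6 lymphoid markers, *Ms4a1* of B cells was at 0 reads in all samples, and *Nkg7* of cytotoxic lymphocytes was the only 1 with reads in every sample (4.86 to 26.5 CPM). Expression is given as CPM, counts brought to 1 common depth with TMM factors. Fold changes are on the log2 scale, IOX5 relative to DMSO, with their standard error (SE). Adjusted p-values were computed by edgeR with the Benjamini-Hochberg method across all 12405 tested genes. Samples with the same replicate number deviated together, so a fit that blocks on this number is also reported where it changed a call.

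Cells make cholesterol from acetyl-CoA through mevalonate, isoprenoids, squalene and lanosterol. When sterols are scarce, SCAP escorts SREBP2 out of the endoplasmic reticulum, SREBP2 is cleaved, and it activates the genes of synthesis and uptake. When sterols are plentiful, INSIG proteins hold SCAP back, and oxysterols activate the LXR receptors, which switch on the efflux pumps ABCA1 and ABCG1 and the ubiquitin ligase MYLIP. In macrophages, engulfed cholesterol enters through lysosomes, where NPC1 and NPC2 pass it on.

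*Insig1* was called lower with IOX5, close to the threshold without the block (adjusted p = 0.0469 by edgeR). That call was lost whenever any 1 of the 8 samples was left out. In the fit with the block, 4 synthesis enzymes and *Abca1* were also called lower, and *Npc1* and *Abcg1* higher. Of the 30 members that could be tested, 23 had a fold change below 0 and 7 above it, with a median of −0.13, against a median of 0.02 over all tested genes, of which 47.2% were below 0. Without the block, edgeR called 0 members higher and 1 lower (*Insig1*), where 0.774% of all tested genes were called higher and 1.25% lower. At an unadjusted p under 0.05 by the same test, 2 members were higher and 7 lower, where 8.98% of all tested genes were higher and 11.2% lower. DESeq2 called 0 members higher and 3 lower, where it called 4.67% higher and 5.75% lower of the 10471 genes to which it gave an adjusted p. With the block, edgeR called 2 members higher and 6 lower, where 11.2% of all tested genes were called higher and 9.43% lower. *Insig1*, *Lss* and *Npc1* were called with the block whichever replicate number was left out, and the other 5 were not. The share of members called was below the background for higher calls and above it for lower calls, which describes a chosen list and is not a test. The plot of fold changes sets the members out by role.

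**Figure D1:**
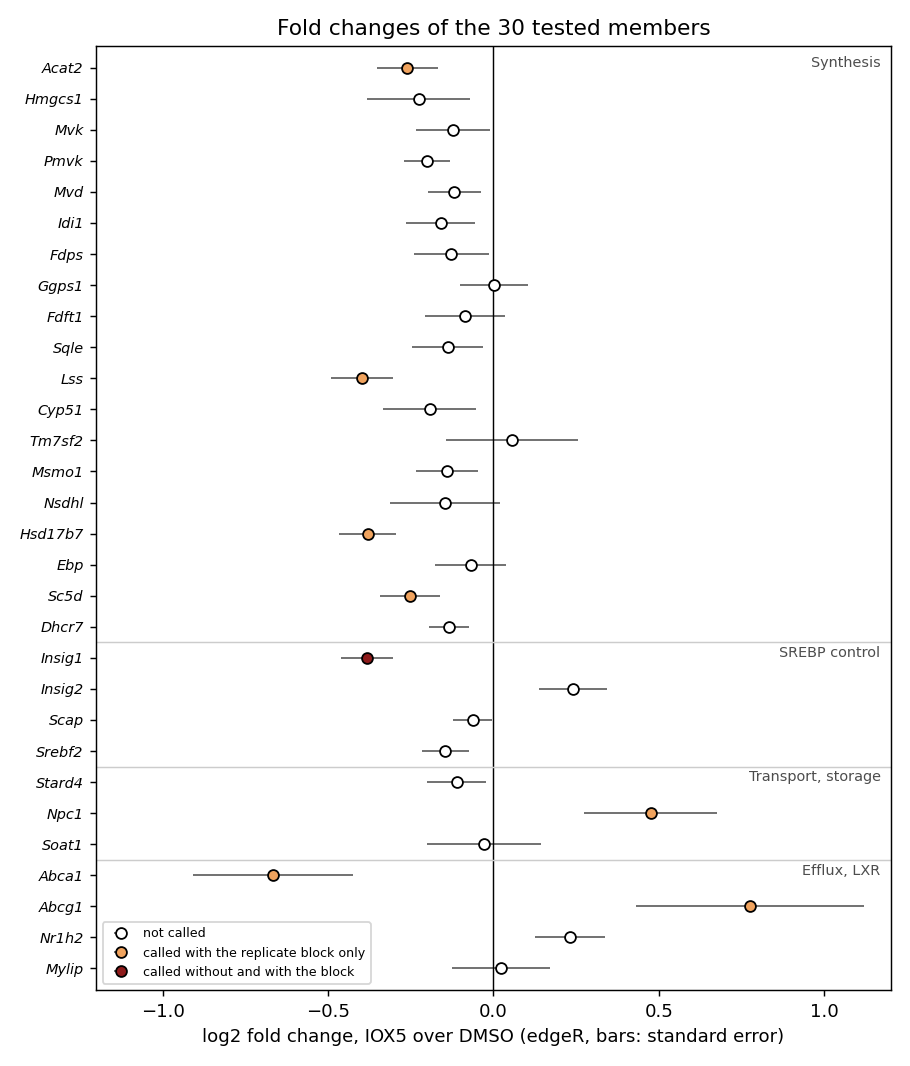
Log2 fold change of IOX5 over DMSO for each of the 30 tested members (points, edgeR without the block), with bars of 1 standard error. Most synthesis enzymes lie slightly below 0, from −0.40 to 0.06, while *Abca1* (−0.67) and *Abcg1* (0.78) lie far from 0 on opposite sides. The filled points mark the 1 member called without and with the block and the 7 called with the block only.

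The direction was also read within replicate numbers and by whether the groups overlapped. In all 4 replicate numbers, 13 of the 30 members were lower with IOX5 and 3 were higher, where 19.9% of all tested genes were lower and 21.3% higher in all 4. The groups did not overlap for 3 members that were lower (*Lss*, *Hsd17b7* and *Insig1*) and for 1 that was higher (*Insig2*), where 8.28% and 5.96% of all tested genes stood apart in these directions. These groups of 4 against 4 can reach no exact permutation p below 0.0286.

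Among the 25 members with a promoter window, only *Hmgcs1* held the letters searched for the sterol regulatory element. Promoter sequences are shown for *Hmgcs1* and for the 3 members whose IOX5 samples all lay below the DMSO samples. These 4 were chosen after their values and motifs had been seen. Each run is the 250 bases before the RefSeq start of the gene on GRCm38.p6, read 5′ to 3′ on the strand of the gene. They lie at chr13:119690101-119690350 (plus strand, *Hmgcs1*), chr10:76531355-76531604 (plus strand, *Lss*), chr1:169969206-169969455 (minus strand, *Hsd17b7*) and chr5:28071162-28071411 (plus strand, *Insig1*). Capitals mark the sterol regulatory element (TCACNCCAC) and the box bound by NF-Y, a partner of SREBP2 (CCAAT, or ATTGG on the other strand).
Hmgcs1: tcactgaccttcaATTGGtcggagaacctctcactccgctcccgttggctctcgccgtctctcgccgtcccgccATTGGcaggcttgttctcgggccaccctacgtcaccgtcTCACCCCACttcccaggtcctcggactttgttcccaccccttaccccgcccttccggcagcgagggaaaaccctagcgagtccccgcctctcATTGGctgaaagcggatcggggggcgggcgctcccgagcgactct
Lss: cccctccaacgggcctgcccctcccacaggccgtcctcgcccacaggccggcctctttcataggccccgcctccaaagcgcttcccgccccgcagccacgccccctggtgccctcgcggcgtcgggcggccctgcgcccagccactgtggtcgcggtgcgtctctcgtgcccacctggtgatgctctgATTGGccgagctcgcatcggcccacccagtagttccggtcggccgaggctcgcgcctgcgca
Hsd17b7: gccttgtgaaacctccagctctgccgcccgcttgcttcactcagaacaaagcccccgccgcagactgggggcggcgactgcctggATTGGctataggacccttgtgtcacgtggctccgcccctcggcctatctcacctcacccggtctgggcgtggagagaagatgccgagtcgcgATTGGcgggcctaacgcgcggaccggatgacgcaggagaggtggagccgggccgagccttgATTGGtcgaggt
Insig1: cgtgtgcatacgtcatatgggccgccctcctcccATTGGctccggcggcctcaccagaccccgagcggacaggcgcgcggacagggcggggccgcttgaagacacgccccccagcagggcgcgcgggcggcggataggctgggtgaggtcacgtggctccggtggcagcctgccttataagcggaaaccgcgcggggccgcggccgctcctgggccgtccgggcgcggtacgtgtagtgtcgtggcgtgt
The 250 bases of *Hmgcs1* hold 1 sterol regulatory element and 3 NF-Y boxes, those of *Hsd17b7* 3 boxes, and those of *Lss* and *Insig1* 1 box each.

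Motifs were counted on both strands in windows of 250 bases before to 50 bases after the RefSeq start, which were given for 25 of the 31 members. The NF-Y box was present in 15 of 16 synthesis enzymes (93.8%), in 1 of 4 efflux and LXR genes (*Mylip*) and in 20 of all 25 members (80%). Over the 27025 genes with a window, 41.1% held it. The sterol regulatory element was found in 1 of the 25 members, against 1.44% of all genes. The core of the element bound by HIF (ACGTG) was found in 6 of the 25 (24%), against 21.8% of all genes, and each of these 6 holds it within CACGTG, which reads the same on both strands and is also the letters of an E-box. *Insig1* holds 2 further copies of the core outside CACGTG. The DR4 element bound by LXR was found in 0 of the 25 members and in 0.0148% of all genes. A match is a description of these letters and does not show binding, and a missing match does not show that an element is absent.

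Levels between genes were compared as CPM per kilobase of annotated exon. In the DMSO samples the highest was *Hmgcs1*, HMG-CoA synthase, at 92.9 ± 20.005 CPM per kilobase (SD, n = 4), followed by *Cyp51*, lanosterol demethylase, at 69.1 ± 12.8 and *Insig1* at 64.4 ± 5.43. *Cyp51* and *Insig1* did not differ beyond their spread. *Srebf2*, which encodes SREBP2, stood at 54.0 ± 2.57 CPM per kilobase and *Stard4*, a carrier of sterols through the cytosol, at 45.6 ± 4.38. The lowest were the LXR genes *Abcg1* at 2.68 ± 0.631, *Abca1* at 0.828 ± 0.222 and *Nr1h3*, which encodes LXRα, at 0.228 ± 0.114 CPM per kilobase. *Nr1h2*, which encodes LXRβ, stood at 20.7 ± 2.32 CPM per kilobase, so most LXR receptor RNA in these cells was that of LXRβ. *Insig2* was at 4.62 ± 0.359 CPM per kilobase, well below *Insig1*. The order refers to RNA per length of all annotated exons, which understates genes with many rare exons.

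**Figure D2:**
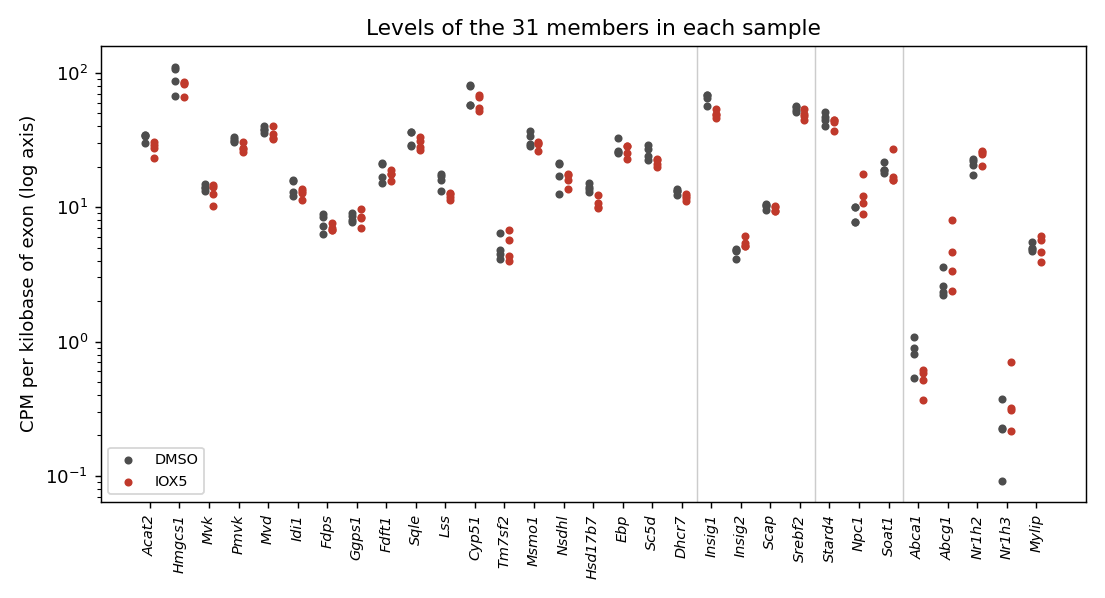
CPM per kilobase of exon (log axis) for the 31 members in each of the 8 samples, DMSO in gray and IOX5 in red, with vertical lines between the roles. Most synthesis enzymes lie between 7.72 (*Fdps*) and 92.9 (*Hmgcs1*) on average in DMSO, and *Abcg1*, *Abca1* and *Nr1h3* lie at the bottom.

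Among the genes that control SREBP2, *Insig1* fell. *Insig1* (chr5:28071363-28078662, plus strand) encodes the INSIG protein that is itself induced by SREBP2. It stood at 201, 175, 211 and 209.9 CPM in DMSO samples 1 to 4 and at 166, 142, 150.4 and 153 CPM in IOX5 samples 1 to 4. Every IOX5 sample lay below every DMSO sample. The log2 fold change was −0.38 ± 0.08 (SE), so that *Insig1* fell by 23.3%, with an adjusted p of 0.0469 by edgeR and 0.00167 with the block. The call without the block was close to the threshold and was lost whenever any 1 of the 8 samples was left out (adjusted p from 0.0552 to 0.156 by edgeR), whereas it held in all 4 fits with the block that left out a replicate number (0.000129 to 0.0295). Without the block it was also lost with RLE factors (0.0522), with upper-quartile factors (0.0586) and with no filter on low counts (0.0664).

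*Insig2* (chr1:121304353-121332589, minus strand) is the second INSIG gene and is not a target of SREBP2. It stood at 16.7, 14.2, 16.95 and 16.3 CPM with DMSO and at 21.2, 17.7, 18.96 and 17.8 CPM with IOX5. Its groups did not overlap either, in the direction opposite to *Insig1*, but the difference of 0.24 ± 0.10 on the log2 scale did not pass the test (adjusted p = 0.235 by edgeR and 0.0882 with the block). The ratio of *Insig1* to *Insig2* CPM was 12.02, 12.3, 12.5 and 12.9 in the DMSO samples and 7.82, 8.03, 7.93 and 8.55 in the IOX5 samples. This ratio, examined after both genes' values had been seen and therefore not tested, varied little within a group and was lower in every IOX5 sample.

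*Srebf2* (chr15:82147181-82205379, plus strand) stood at 382, 365, 401 and 405 CPM with DMSO and at 318, 354, 388 and 344 CPM with IOX5. The groups overlapped through replicate 3 of the IOX5 group, and the log2 difference of −0.15 ± 0.07 did not pass the test (adjusted p = 0.296 by edgeR). *Scap* differed by −0.06 ± 0.06 on the log2 scale (adjusted p = 0.599 by edgeR).

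Of the 19 synthesis enzymes, 17 had a fold change below 0 and 2 above it (*Ggps1* at 0.00 and *Tm7sf2* at 0.06), with a median of −0.14 and a range of −0.40 to 0.06. Without the block, 0 were called by edgeR, although 5 were lower at an unadjusted p under 0.05 (11.2% of all tested genes) and DESeq2 called 2 lower (*Lss* and *Hsd17b7*, against 5.75% of genes). With the block, edgeR called 4 lower and 0 higher (9.43% and 11.2% of all tested genes). Of the 19, 10 were lower with IOX5 in all 4 replicate numbers, as were 19.9% of all tested genes. The 4 enzymes called with the block were *Acat2*, *Lss*, *Hsd17b7* and *Sc5d*.

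*Acat2* (chr17:12942890-12960747, minus strand) encodes the cytosolic thiolase that joins acetyl-CoA units at the start of the pathway. It stood at 85.5, 75.9, 87.5 and 87.6 CPM with DMSO and at 78.1, 59.1, 69.7 and 73.9 CPM with IOX5. The groups overlapped, since replicate 1 of the IOX5 group exceeded replicate 2 of the DMSO group, but each IOX5 sample was below the DMSO sample of its own number. *Acat2* differed by −0.26 ± 0.09 on the log2 scale, with an adjusted p of 0.165 by edgeR and 0.0135 with the block, which became 0.102 without number 3. The other 7 genes of the mevalonate and isoprenoid steps ran from −0.23 ± 0.16 for *Hmgcs1* to 0.00 ± 0.10 for *Ggps1*, a synthase of the side branch to geranylgeranyl groups, and 0 of them were called in either fit. *Hmgcs1* was at 399, 309.7, 511 and 488 CPM with DMSO and at 380.3, 304, 384 and 390.4 CPM with IOX5. Its IOX5 samples lay within or just below the wide DMSO range (adjusted p = 0.457 by edgeR and 0.0663 with the block). *Hmgcs1* was called lower with the block only where number 2 was left out.

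*Lss* (chr10:76531588-76557138, plus strand) encodes lanosterol synthase, which closes squalene epoxide into the first sterol. It stood at 172, 142, 191 and 184 CPM with DMSO and at 135, 122, 137 and 128 CPM with IOX5. All IOX5 samples lay below all DMSO samples, at a log2 fold change of −0.40 ± 0.10. By edgeR the adjusted p was 0.0663 without the block and 0.00193 with it, and by DESeq2 it was 0.00556.

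*Hsd17b7* (chr1:169949535-169969241, minus strand) encodes a reductase that completes the removal of methyl groups from the sterol ring. It stood at 65.9, 72.4, 76.8 and 69.9 CPM with DMSO and at 55.0, 62.9, 51.0 and 50.1 CPM with IOX5. These groups did not overlap and differed by −0.38 ± 0.09 on the log2 scale, with an adjusted p of 0.0584 by edgeR, 0.00425 with the block and 0.00465 by DESeq2. Without number 3 the adjusted p with the block was 0.0536 by edgeR.

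*Sc5d* (chr9:42251595-42264256, minus strand) encodes a late desaturase of the sterol ring. It stood at 117, 108, 141 and 131 CPM with DMSO and at 110.3, 96.5, 109 and 101 CPM with IOX5. The groups overlapped, but each IOX5 sample was below the DMSO sample of its own number, by more in numbers 3 and 4 than in numbers 1 and 2. The log2 fold change was −0.25 ± 0.09, with an adjusted p of 0.168 by edgeR and 0.0237 with the block. The call with the block was lost without number 3 (adjusted p = 0.167 by edgeR) and without number 4 (0.0742). The other 8 genes of the squalene and sterol steps ran from −0.19 ± 0.14 for *Cyp51* to 0.06 ± 0.20 for *Tm7sf2*, a sterol reductase, and 0 of them were called in either fit. *Sqle*, the squalene epoxidase that controls entry into the sterol branch, differed by −0.14 ± 0.11, and *Dhcr7*, a reductase of the last steps, by −0.13 ± 0.06.

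**Figure D3:**
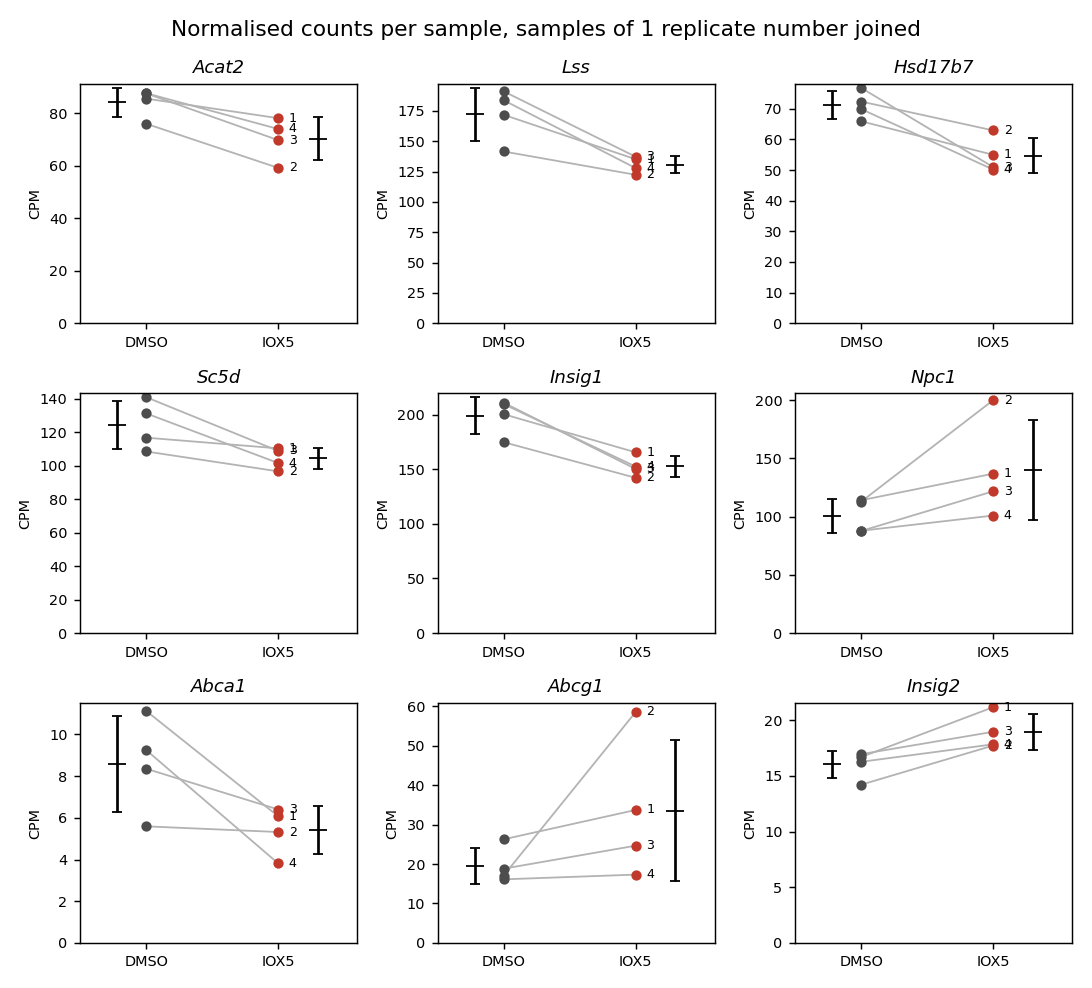
CPM in each sample for the 8 members called with the replicate block and for *Insig2*, with gray lines joining the DMSO (gray) and IOX5 (red) samples of 1 replicate number and black bars giving mean ± SD (n = 4). *Insig1*, *Lss* and *Hsd17b7* fell in every number with no overlap between the groups, and replicate 2 of the IOX5 group is the highest point for *Npc1* (200.2 CPM) and *Abcg1* (58.6 CPM).

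Of the 3 transport and storage genes, *Npc1* was called with the block. *Npc1* encodes the lysosomal membrane protein that releases cholesterol from lysosomes. It stood at 114, 113, 87.7 and 87.9 CPM with DMSO and at 137, 200.2, 122 and 101 CPM with IOX5. The groups overlapped through IOX5 replicate 4, but *Npc1* was higher with IOX5 in every number. The log2 fold change was 0.48 ± 0.20 with an adjusted p of 0.228 by edgeR, and 0.44 ± 0.09 with an adjusted p of 0.00442 with the block. Leaving out number 2, the fold change with the block was 0.31 (adjusted p = 0.00324 by edgeR). *Npc1* overlaps *Rmc1* on the opposite strand (11994 and 4330 reads in all samples). Exons of *Fdft1* (7634 reads), *Ggps1* (3975) and *Cyp51* (28772) likewise overlap those of *Ctsb* (58166 reads), *Arid4b* (7476) and *Akap9* (11254) on the opposite strand, and the first 2 of these have more reads than the member. The strand setting of the counting is not stated. The antisense pair *Xist* (105071 reads) and *Tsix* (21 reads) was kept apart in the counts.

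*Soat1* (chr1:156424525-156474331, minus strand) encodes the enzyme that esterifies cholesterol for storage. It stood at 185, 212, 175 and 187 CPM with DMSO and at 157, 267, 165 and 156 CPM with IOX5. Replicate 2 of the IOX5 group lay above all other samples and the other IOX5 samples lay below all DMSO samples. The log2 difference was −0.03 ± 0.17 with all samples (adjusted p = 0.944 by edgeR) and −0.25 without IOX5 replicate 2 (adjusted p = 0.117 by edgeR). *Stard4* differed by −0.11 ± 0.09 (adjusted p = 0.523 by edgeR).

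The 5 efflux and LXR genes did not move together. *Abca1* (chr4:53030787-53159895, minus strand), the pump that loads cholesterol onto lipid-poor apolipoproteins, stood at 11.1, 5.59, 8.36 and 9.25 CPM with DMSO and at 6.07, 5.32, 6.40 and 3.81 CPM with IOX5. *Abcg1* (chr17:31057675-31117988, plus strand), the pump that delivers cholesterol to mature lipoprotein particles, stood at 26.3, 17.1, 18.8 and 16.1 CPM with DMSO and at 33.7, 58.6, 24.7 and 17.3 CPM with IOX5. Both groups overlapped for both genes, yet *Abca1* was lower and *Abcg1* higher with IOX5 in every replicate number. For *Abca1*, which rests on 715 reads in all 8 samples, the log2 fold change was −0.67 ± 0.24 with an adjusted p of 0.172 by edgeR and 0.0183 with the block, a call that was lost without number 1 (0.0768) and without number 4 (0.0865). For *Abcg1* it was 0.78 ± 0.35 with an adjusted p of 0.251 by edgeR and 0.0281 with the block. Without number 2, the *Abcg1* fold change with the block was 0.30 (adjusted p = 0.0379 by edgeR), and without number 3 the call was lost (0.77, adjusted p = 0.0548). The ratio of *Abcg1* to *Abca1* CPM was 2.36, 3.06, 2.25 and 1.74 with DMSO and 5.55, 11.02, 3.85 and 4.55 with IOX5, higher in every IOX5 sample. This ratio was also examined after the values had been seen, and was not tested.

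*Nr1h2* stood at 74.2, 58.7, 76.0 and 68.8 CPM with DMSO and at 83.4, 87.3, 86.6 and 68.3 CPM with IOX5. The log2 difference of 0.23 ± 0.11 did not pass the test (adjusted p = 0.267 by edgeR and 0.0685 with the block). *Nr1h2* was called higher with the block only where number 4 was left out. *Nr1h3* stood at 0.56, 0.93, 0.57 and 0.23 CPM with DMSO and at 0.80, 1.77, 0.55 and 0.78 CPM with IOX5. With 76 reads over the 8 samples it did not pass the filter on low counts and was not tested. *Mylip* differed by 0.02 ± 0.15 (adjusted p = 0.950 by edgeR).

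Synthesis was then set against efflux. The median log2 fold change was −0.14 for the 19 synthesis enzymes and 0.13 for the 4 tested efflux and LXR genes. No test was made for this difference of −0.27. The 4 efflux and LXR values ran from −0.67 to 0.78, and the 3 LXR targets without the receptor *Nr1h2* had a median of 0.02. The difference between the sets in mean log2 CPM had a pooled SD of 0.295 between replicates. Leaving out 1 sample moved the efflux median between 0.06 and 0.22, and leaving 1 number out of the fit with the block between 0.02 and 0.24. The mean log2 CPM of the synthesis enzymes was 6.30, 6.21, 6.48 and 6.42 in the DMSO samples and 6.20, 6.14, 6.20 and 6.23 in the IOX5 samples. The groups overlapped through DMSO replicate 2, and IOX5 minus DMSO was −0.09, −0.08, −0.28 and −0.19 in numbers 1 to 4. The same mean over the 4 efflux and LXR genes was 4.59, 4.13, 4.40 and 4.39 in DMSO and 4.58, 4.77, 4.43 and 3.98 in IOX5, with differences of −0.01, 0.64, 0.03 and −0.41. The 2 sets thus parted in numbers 2 and 3, differed little from each other in number 1, and were both lower in number 4, where the efflux genes differed more.

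**Figure D4:**
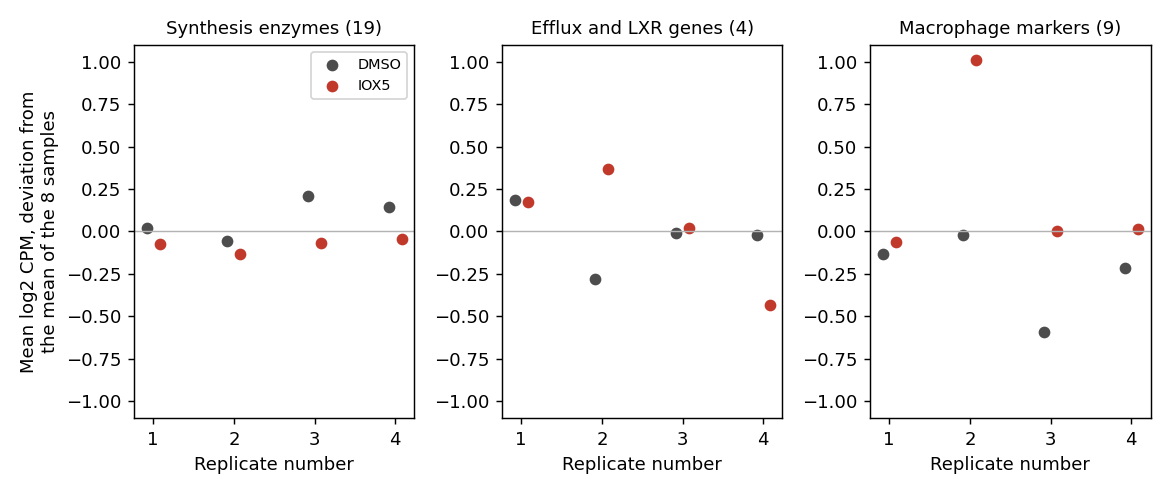
Mean log2 CPM in each sample, as the deviation from the mean of the 8 samples, for the 19 synthesis enzymes, the 4 tested efflux and LXR genes and the 9 tested macrophage markers, against the replicate number (DMSO gray, IOX5 red). Synthesis was lower with IOX5 in each number, with differences of −0.28 to −0.08, while efflux differed by −0.41 to 0.64 and the macrophage markers were highest in replicate 2 of the IOX5 group.

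**Figure D5:**
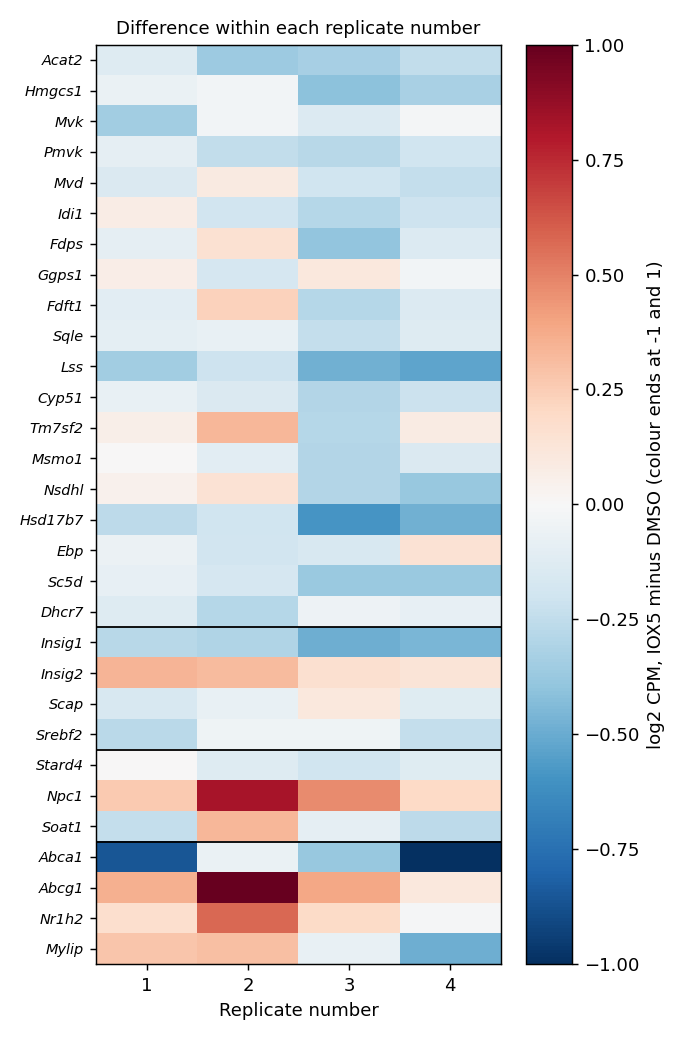
Difference in log2 CPM between the IOX5 and DMSO sample of each replicate number (columns) for the 30 tested members (rows, ordered by role), with blue for lower and red for higher. The synthesis rows are mostly blue and deepest in numbers 3 and 4, and the largest differences are those of *Abcg1* in number 2 (1.77) and *Abca1* in number 4 (−1.25).

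Markers of other cells were examined because the pumps and lysosomal proteins are abundant in macrophages, and fewer cells of a type and less RNA per cell cannot be told apart in bulk samples. The summed CPM of 10 macrophage markers was 968, 1118, 749.8 and 969 in the DMSO samples and 1224, 2741, 1331 and 1352 in the IOX5 samples. Every IOX5 sample was above every DMSO sample, and replicate 2 stood far above the rest. *Lyz2*, which monocytes and granulocytes also express, was the most abundant, and without it the sums were 306, 365, 250.1 and 303 with DMSO and 357, 817, 385 and 378 with IOX5, where the groups overlapped through replicate 1 of the IOX5 group. Of the 10 markers, 9 were tested, 7 of these had a fold change above 0, and with the block edgeR called 5 higher and 1 lower (*Fcgr1*), where 11.2% of all tested genes were called higher and 9.43% lower. *Adgre1*, which encodes F4/80, stood at 54.2, 49.5, 32.2 and 36.9 CPM with DMSO and at 87.0, 170.2, 86.2 and 65.5 CPM with IOX5. Replicate 2 of the IOX5 group was thus the highest sample for the macrophage markers and for *Npc1*, *Abcg1* and *Soat1*. The part of macrophage-like cells in these results was not tested. Markers of mast cells and basophils summed to 186 to 269 CPM in numbers 1 and 2 and to 644 to 711 CPM in numbers 3 and 4 of the DMSO group, and to 328 to 358 and 876 to 1080.0 CPM in the IOX5 group, and their part in the replicate numbers was not tested. Markers of other lineages also had reads. The megakaryocyte markers summed to 26.4 to 71.9 CPM with DMSO and to 90.4 to 149 CPM with IOX5 without overlap, with *Gp1bb* at 0 reads in all samples, and the granulocyte markers, led by *Mpo*, to 4763 to 7530.1 CPM and to 5456 to 8405 CPM. The erythroid markers summed to 7.38 to 28.5 CPM with DMSO and to 9.93 to 45.5 CPM with IOX5. Of 6 markers of stroma and endothelium, *Col1a2* was at 0 reads in all samples and *Col1a1* at 0.52 to 1.22 CPM, while *Pecam1*, which myeloid cells also carry, stood at 82.5 to 217 CPM. With the block, edgeR called higher 7 of 7 tested markers of mast cells and basophils, 8 of 10 of granulocytes, 4 of 5 of megakaryocytes, 2 of 5 of erythroid cells, 5 of 9 of leukemic progenitors, *Kit* and *Cd34* among them, 1 of 1 of lymphoid cells (*Nkg7*, 0.58, adjusted p = 0.00238) and 1 of 2 of stroma and endothelium (*Pecam1*), and called 0 of them lower, against the same shares of all tested genes. Without the block it called 1 marker of these lists and of the macrophage list, *Vwf* of megakaryocytes (adjusted p = 0.0442), while DESeq2 without the block called higher 4 macrophage, 2 megakaryocyte and 1 granulocyte marker. The part of these cells in the results was not tested.

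The synthesis enzymes varied together only in part. After removal of the group means, the correlation over the 8 samples had a median of 0.24 over the 171 pairs of synthesis enzymes, of which 103 were above 0. The closest pairs were *Lss* with *Nsdhl* (r = 0.988) and *Sqle* with *Cyp51* (r = 0.973). *Msmo1*, *Hmgcs1* and *Cyp51* had the highest median correlation with the other enzymes (0.77, 0.76 and 0.71). The median was below 0 for *Ebp* (−0.46), *Mvk* (−0.28), *Tm7sf2* (−0.17), *Hsd17b7* (−0.12), *Dhcr7* (−0.11) and *Mvd* (−0.02). These correlations share libraries and replicate numbers: some enzymes, among them *Sqle* and *Cyp51*, were highest in numbers 3 and 4 of both groups. Between the 19 synthesis enzymes and the 4 efflux genes, the median over 76 pairs was −0.02, with 36 above 0.

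Other genes of the pathway were read from the same fit. Of 7 further genes of SREBP processing, 1 was called lower by edgeR without the block, and with the block 1 was called lower and 1 higher. Over all tested genes, 1.25% were called lower without the block, and 9.43% lower and 11.2% higher with it. *Srebf1*, which encodes SREBP1, the regulator of fatty acid synthesis and itself a target of LXR, stood at 241, 208, 218 and 211 CPM with DMSO and at 173, 166, 178 and 169 CPM with IOX5. Its groups did not overlap. The log2 fold change was −0.36 ± 0.06, with an adjusted p of 0.0331 by edgeR and 0.00215 with the block, although leaving out single samples gave adjusted p-values of 0.0387 to 0.129, above 0.05 for all but IOX5 replicate 4, and no filter on low counts gave 0.0629. *Rnf145*, a ubiquitin ligase of the endoplasmic reticulum, was called higher with the block (0.33 ± 0.07, adjusted p = 0.00437 by edgeR). The 3 further SREBP2 targets (*Tmem97*, *Erg28* and *Mmab*) had fold changes of −0.22, −0.11 and −0.08. Of these 0 were called in either fit, with 0 at an unadjusted p under 0.05 by edgeR without the block and 1 with it, and 0 by DESeq2. Leaving out 1 sample moved *Tmem97* between −0.34 and −0.12 and *Erg28* between −0.17 and −0.06. Leaving 1 number out of the fit with the block gave *Tmem97* adjusted p-values of 0.0245 to 0.199 by edgeR.

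Most further genes of uptake and lysosomal transport had fold changes above 0. Of 17 such genes, 16 were tested, 13 had a fold change above 0, and the median was 0.16. Without the block 0 were called by edgeR, although 3 were higher and 1 lower at an unadjusted p under 0.05 (8.98% and 11.2% of all tested genes) and DESeq2 called 1 higher (4.67% of genes). With the block 3 were called higher (*Npc2*, *Lipa* and *Scarb2*) and 1 lower (*Soat2*), against 11.2% and 9.43% of all tested genes. *Npc2*, which hands lysosomal cholesterol to NPC1, stood at 291, 311, 304 and 300.1 CPM with DMSO and at 343, 429, 356 and 369 CPM with IOX5. *Lipa*, the lysosomal acid lipase that frees cholesterol from its esters, stood at 103, 110.0, 90.4 and 95.3 CPM with DMSO and at 138, 239.9, 114 and 112 CPM with IOX5. For both genes every IOX5 sample exceeded every DMSO sample and replicate 2 of the IOX5 group was the highest. The log2 fold changes were 0.31 ± 0.08 for *Npc2* (adjusted p = 0.0676 by edgeR and 0.00607 with the block) and 0.60 ± 0.23 for *Lipa* (0.195 and 0.00594). Without number 2 the fold changes with the block were 0.25 and 0.33. *Soat2*, the second esterifying enzyme, differed by −0.50 ± 0.16 (adjusted p = 0.126 by edgeR and 0.0156 with the block), a call that was lost without number 3 (0.104) or 4 (0.0686). The macrophage marker sums given above moved in the same samples, and their part was not tested.

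The remaining branches were read in the same way. Of 12 other LXR targets and partners, 7 were tested, and with the block, which called 11.2% of all tested genes higher, 1 was called higher (*Smpdl3a*, at 0.85 to 5.19 CPM), a call that was lost whichever number was left out (adjusted p from 0.0606 to 0.116 by edgeR), while *Apoe*, an apolipoprotein, differed by −0.32 ± 0.12 and *Rxrb*, an RXR partner of LXR, by 0.17 ± 0.07 without a call. Of 6 enzymes of oxysterol and bile acid synthesis, 3 were tested and 0 called by edgeR or DESeq2, also at an unadjusted p under 0.05, with *Cyp39a1* at −0.20 ± 0.30 and *Hsd3b7* at 0.12 ± 0.26. Of 15 genes of other mevalonate branches, such as prenylation and dolichol synthesis, 5 had a fold change above 0 and 10 below it. With the block 1 was called lower and 0 higher, against 9.43% and 11.2% of all tested genes. At an unadjusted p under 0.05 by edgeR without the block, 2 were lower (11.2% of all tested genes). The gene called was *Rabggtb*, a subunit of the enzyme that prenylates Rab proteins (−0.22 ± 0.10 without the block, adjusted p = 0.0347 with it by edgeR). This call was lost where number 1, 2 or 3 was left out (0.0566 to 0.143). *Zmpste24* and *Nus1* differed by −0.15 each without a call.

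For scale, 8 of 8 HIF targets used as a reference had a fold change above 0 with a median of 0.71. Of these, 4 were called higher without the block and 8 with it, against 0.774% and 11.2% of all tested genes. Each of the 4 calls without the block was lost in some fits that left out a single sample. Their highest adjusted p-values ran from 0.0784 for *Ankrd37* to 0.133 for *Bnip3* by edgeR. *Ankrd37* stood at 5.28, 5.44, 6.49 and 6.94 CPM with DMSO and at 13.5, 18.2, 16.2 and 14.98 CPM with IOX5, which is 1.38 ± 0.15 higher on the log2 scale (adjusted p = 0.0143 by edgeR). *Pdk1* was 0.67 ± 0.08 higher on this scale (adjusted p = 0.0157). Among the members, *Abcg1* and *Abca1* had fold changes of a size near that of *Pdk1* but with larger standard errors, and those of the synthesis enzymes were smaller.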

How the data were processed

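RNA-seq counts of 4 DMSO and 4 IOX5 samples were examined, with groups and replicate numbers taken from the sample labels. The authors trimmed adaptors with cutadapt 1.18, mapped reads to GRCm38 with HISAT2 2.2.1 and counted reads per Ensembl gene with HTSeq 2.0.1, and they deposited whole-number counts without normalization. The 5 summary lines of each file (20.6% to 22.6% of reads) entered neither the library sizes nor the tests. Of 54838 genes, 54809 matched GENCODE M21 by identifier. R 4.3.3 with edgeR 4.0.16 was used for filterByExpr (12405 genes retained), TMM factors (0.988 to 1.03) and the quasi-likelihood test, called at a Benjamini-Hochberg adjusted p under 0.05, without a block. Log2 CPM used a prior count of 2. Exact two-sided permutation tests used the 70 assignments of samples to groups.

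The alternatives were DESeq2 1.42.0 on the same genes, RLE and upper-quartile factors, no filter, at least 10 reads in every sample, voom of limma 3.58.1 with sample weights, the replicate block, each sample or number left out, an adjusted p under 0.1, and a sterol regulatory element with a fixed middle base. Deviations from the group means correlated between same-numbered samples (0.758, 0.744, 0.732 and 0.636 for numbers 1 to 4). Other pairs reached at most 0.685, between DMSO sample 4 and IOX5 sample 3, which is above the 0.636 within number 4. DMSO sample 3 and IOX5 sample 4 correlated at 0.617. The data thus did not clearly tell numbers 3 and 4 apart, and pairing by number is an assumption. The fits were also run on simulated counts with known fold changes. These counts held no structure by replicate number, so they cannot show how the block performs on such structure.

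The members, the further lists and the tests were chosen with earlier results of these data known. Some genes of the pathway are not reported here. The rule for named genes took members called with or without the block, 7 control, storage and efflux genes, and the 2 smallest adjusted p-values of each further list. Promoter windows are from RefSeq, GRCm38.p6, and the rule set for printing them, a named member holding a sterol or LXR element, was met by 0 members.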

Additional observations from a re-analysis of the deposited data

Results flagged for a closer look

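Single samples were compared with the rest of their group for every member, for the other genes chosen by the naming rule and for the marker sums. In groups of 4, a sample was singled out when its gap to the nearest other sample took up more of the group's range than Dixon's critical value allows. Of 154 groups examined, 9 held such a sample, near the share of about 1 in 20 that chance gives.

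Among the members, *Soat1* stood at 267 CPM in replicate 2 of the IOX5 group, above the 156 to 165 CPM of the other 3. *Hmgcs1* stood at 304 CPM in the same sample, below the 380.3 to 390.4 CPM of the others. *Ebp* stood at 75.7 CPM in replicate 2 of the DMSO group, above 58.7 to 61.0 CPM.

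Among the other genes, *Smpdl3a* stood at 3.66 CPM in DMSO replicate 1 (others 0.85 to 1.14 CPM) and at 5.19 CPM in IOX5 replicate 1 (others 1.47 to 2.04 CPM). *Hsd3b7* stood at 2.56 CPM in DMSO replicate 2, below 4.93 to 5.27 CPM. *Pecam1*, a marker of endothelium that myeloid cells also carry, stood at 82.5 CPM in DMSO replicate 2, below 161 to 163 CPM, and set the sum of the stroma and endothelium markers in that sample (84.4 against 162 to 164 CPM). The macrophage markers summed to 2741 CPM in IOX5 replicate 2, above 1224 to 1352 CPM. Replicate 2 of one or the other group accounted for 7 of the 9, counting both *Pecam1* and the sum that it set. The genes of 1 sample are not independent, and the cause was not tested.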

How the results depend on the processing

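The medians kept their sign under every alternative run: leaving out 1 sample gave −0.20 to −0.10 for the synthesis enzymes, 0.06 to 0.22 for the efflux genes and −0.38 to −0.19 for their difference, and leaving out 1 number from the fit with the block gave −0.19 to −0.11, 0.02 to 0.24 and −0.38 to −0.21. Counts of calls depended on the model. With the replicate block, 2 members were higher and 6 lower, and 1394 and 1170 of all genes. The block with replicate number 1, 2, 3 or 4 left out gave 2, 2, 1 and 3 members higher and 5, 7, 3 and 4 lower, with 994, 1119, 642 and 1355 of all genes higher and 650.0, 1016, 403 and 1058 lower. *Insig1*, *Lss* and *Npc1* were called in each of these fits. DESeq2 called 3 members lower, and 489 genes higher and 602 lower. Voom called 4 members lower, and 426 and 610 genes. RLE factors, upper-quartile factors and no filter called 0 members lower by edgeR (7 each at an unadjusted p under 0.05), and no filter 73 genes lower. At an adjusted p under 0.1, 3 members were lower, and 332 genes higher and 486 lower. Leaving out 1 sample gave 0 members higher, 0 to 1 lower (*Hsd17b7*, without IOX5 replicate 2), and 0 to 130 genes higher and 0 to 333 lower. Both counts were 0 when replicate 3 or 4 of DMSO or replicate 3 of IOX5 was dropped, where 886, 969 and 939 genes were higher and 1083, 877 and 1172 lower at an unadjusted p under 0.05 by edgeR. The cause of these changes was not tested. It turned the sign of *Soat1* (−0.254 to 0.0466), *Hsd3b7* (−0.0711 to 0.209) and *Cyp39a1* (−0.441 to 0.0172), none of them called, as did the block without replicate 2 for *Hsd3b7* (−0.0027) and without replicate 4 for *Soat1* (0.0065).

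Dose, time and the origin of the replicates are not given. Among the members the block on all samples changed no call beyond those of the 7 named with the results. Leaving out a number added a call of *Hmgcs1* (number 2) and of *Nr1h2* (number 4). *Nr1h3* and *Abca1*, with 76 and 715 reads in all samples, have the least depth, and *Nr1h3* could not be tested.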
